A study of Mus musculus with 8 samples.

Results

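The genes described here make and load the molecules that show peptides to T cells. They were chosen by name: every gene on the array whose name begins with H2-, the prefix of the mouse major histocompatibility complex (MHC), together with B2m, Tap1, Tap2, Tapbp, Cd74, Ciita, Psmb8, Psmb9 and Psmb10. The rule found 50 gene names among the 34797 gene names of the array's noncontrol spots. They are carried by 65 probes on 93 spots.

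Class I molecules are heavy chains that pair with beta-2-microglobulin, the product of B2m, and carry peptides cut in the cytosol. The immunoproteasome subunits (Psmb8, Psmb9 and Psmb10) cut proteins into such peptides, the transporter subunits Tap1 and Tap2 move them into the endoplasmic reticulum, and tapasin, made by Tapbp, holds the class I molecule open for loading. Class II molecules are pairs of an alpha and a beta chain. They travel with the invariant chain, Cd74, and take up peptides from engulfed material with the help of H2-DM, which H2-O restrains. Ciita switches the class II genes on. In the brain, class II is known mainly from microglia and border macrophages, while class I is made more widely, and interferons raise both.

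The tissue was the olfactory bulb of male C57BL/6J mice. Dams entered a standard cage (C) or environmental enrichment (EE, a larger cage with a wheel, a house, blocks and tubes) at gestational day 14, and pups were weaned at postnatal day 27. The offspring kept the same kind of housing while they spent 28 days, postnatal days 28 to 55, in a chamber with clean air or with diesel exhaust (DE) at 90 µg/m3 for 8 hours per day, and tissue was taken at 56 days of age. In a group name the housing comes first and the chamber second, so that C-DE stands for a standard cage with exhaust. The pools held RNA of 7 mice in C-C, of 7 in C-DE, of 8 in EE-C and of 9 in EE-DE. Each was divided over 2 arrays, per the description of the experiment. A group is therefore 1 sample without biological replicates. No test between groups is possible and none is given. Each difference is the log2 fold change between the means of 2 pools, with its range over the 4 pairings of their arrays, and this range covers the spread between arrays of a pool, not that between mice.

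Values are log2 signals relative to the 75th percentile of the same array, so 0 is the level of that percentile. The threshold for calling a probe was 1.5-fold (0.585 in log2). The comparisons are exposure in standard housing (C-DE/C-C), exposure in enriched housing (EE-DE/EE-C), enrichment in clean air (EE-C/C-C), enrichment under exhaust (EE-DE/C-DE) and both factors together (EE-DE/C-C). The percentile of the raw signal lay between 644 and 716 on the 8 arrays. Of the noncontrol spots, 68.0 to 70.6% passed the scanner software's test for signal well above background on 7 arrays. On the first EE-DE array 56.7% passed, and its median background was the highest. All arrays were on 1 slide. The C-C and C-DE arrays lay in one slide column and the EE-C and EE-DE arrays in the other, so housing and slide position cannot be told apart. The 8 olfactory bulb markers on the array were all detected. In RNA of whole bulb, fewer cells of a type and less RNA per cell cannot be told apart.

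The arrays of 1 pool did not always match, and whether both carried the same RNA was not tested. If they did not, the ranges over pairings hold more than technical error. In EE-C, the first array was above the second for the neutrophil markers (6 of 6 probes, median 1.42) and for markers of the olfactory mucosa's support cells and glands (6 of 6, median 1.38). For 17 probes of interferon response genes, the second C-DE array was above the first at all 17 (median 0.41), and the first EE-DE array was above the second at all 17 (median 0.34). Gaps of this kind are set beside the member values where they touch them.

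Among the members, 38 probes of 34 genes passed the filter. They had a GenBank or RefSeq accession and spots that were well above background on all 8 arrays without an outlier flag. These were 21 class I probes of 18 genes, 9 class II probes of 8 genes, 6 probes of all 6 peptide supply and loading genes, and 2 probes of region genes. The region genes, H2-Ke2 (now Pfdn6, a prefoldin subunit) and H2-Ke6, carry the prefix for their place in the complex and present no peptide. The other 16 genes have no probe that passed. Of the 27 probes left out, 24 were not well above background on every array and 3 had no GenBank or RefSeq accession. Of the 12 class I genes among the 16, 10 are H2-M genes, and the others are H2-T3 and H2-T18. The class II genes among them are Ciita, H2-DMb2, H2-Eb2 and H2-Ea-ps. H2-M9, H2-M10.1, H2-M10.4 and H2-M10.6 were not well above background on any array. The H2-M1, H2-M9, H2-M10 and H2-M11 genes are known from vomeronasal sensory neurons. H2-Eb2 and H2-Ea-ps, a class II beta chain gene and an alpha chain pseudogene, were not well above background on any array either.

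Class I genes are near copies of each other, and this shows both in their promoters and in the probes. The stretches below are shown because the same short elements recur in class I promoters and were not found in the class II promoters. They are RefSeq sequences of build GRCm38.p6, read 5′ to 3′ on the gene's strand. Promoters of 36 of the 50 members were in the table used, each with 250 bases before and 50 after the annotated start. Capitals mark matches, on either strand, to letters of interferon response elements (GAANNGAAA, or the same with an added A before the gap) and to the letters of a kappa-B element, the first run of capitals in H2-K1. The motifs do not overlap here.
H2-K1, chr17:34000414-34000473, minus strand: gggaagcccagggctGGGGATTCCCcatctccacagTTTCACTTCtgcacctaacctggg
H2-D1, chr17:35262908-35262967, plus strand: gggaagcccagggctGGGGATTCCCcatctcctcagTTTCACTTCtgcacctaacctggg
H2-Q4, chr17:35379428-35379487, plus strand: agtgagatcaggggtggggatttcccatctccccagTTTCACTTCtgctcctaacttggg
H2-Q6, chr17:35424662-35424721, plus strand: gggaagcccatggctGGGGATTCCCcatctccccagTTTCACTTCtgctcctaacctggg
H2-Q7, chr17:35439006-35439065, plus strand: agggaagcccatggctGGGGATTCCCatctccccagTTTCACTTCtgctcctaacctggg
H2-M3, chr17:37270097-37270156, plus strand: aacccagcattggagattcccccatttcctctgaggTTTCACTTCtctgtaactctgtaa
H2-T23, chr17:36032802-36032861, minus strand: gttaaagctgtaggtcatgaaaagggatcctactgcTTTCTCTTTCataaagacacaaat
B2m, chr2:122147512-122147571, plus strand: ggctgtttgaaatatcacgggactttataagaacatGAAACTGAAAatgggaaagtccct

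Interferon-like letters were found in 10 of 21 class I promoters, in 0 of 8 class II promoters and in 0 of 5 promoters of peptide supply and loading genes. Among all 27025 promoters in the table, 10.4% hold them. The kappa-B letters were in 4 class I promoters (H2-K1, H2-D1, H2-Q6 and H2-Q7), against 0.104% of all promoters. No match says only that these letters are not in the window. In class II promoters the shared element is ATTGG, the reversed CCAAT letters of the Y box, which 7 of 8 held, against 37.9% of all promoters. It is also in 18 of 21 class I promoters. The letters TTCNNNGAA of gamma-activated sites were in 8.47% of all promoters and, among the members, in H2-M3, H2-M11, H2-DMb2 and Psmb8. Capitals in the class II stretches mark ATTGG.
H2-Aa, chr17:34287854-34287913, minus strand: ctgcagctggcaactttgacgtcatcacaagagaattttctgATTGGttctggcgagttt
H2-Eb1, chr17:34305766-34305825, plus strand: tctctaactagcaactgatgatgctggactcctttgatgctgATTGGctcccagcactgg
H2-DMb1, chr17:34153088-34153147, plus strand: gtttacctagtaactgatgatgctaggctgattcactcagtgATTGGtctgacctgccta
H2-Oa, chr17:34092294-34092353, plus strand: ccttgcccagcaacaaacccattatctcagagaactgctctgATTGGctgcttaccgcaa
H2-Ob, chr17:34238806-34238865, plus strand: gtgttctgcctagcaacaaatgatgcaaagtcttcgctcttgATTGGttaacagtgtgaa

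The likeness extends to the 60-base probes. One H2-K2 probe and the H2-Q7 probe are identical at 49 of 57 overlapping bases, and the H2-Q10 probe and one H2-Q2 probe at 45 of 50. The 30-base stretches below show the most alike part of each pair, with differing bases in capitals. The array's own annotation also lists H2-Q9 for the H2-Q7 probe and H2-T22 for the H2-T9 probe. A class I signal can therefore come from a paralog, and the names of H2-K2, H2-Q and H2-T probes are uncertain to that extent. H2-K2 and H2-T10 are transcribed pseudogenes in RefSeq.
H2-K2 probe: CAtctcctgtgacatccagagccctcagtt
H2-Q7 probe: TCtctcctgtgacatccagagccctcagtt
H2-Q10 probe: catcacccAGgatctGaaggtgatgtcacc
H2-Q2 probe: catcacccCAgatctCaaggtgatgtcacc

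None of the 38 member probes that passed the filter reached 1.5-fold in any of the 5 comparisons. Of all 21902 probes, 0.571% did so with exposure in standard housing, 0.963% with exposure in enriched housing, 0.836% with enrichment in clean air, 0.639% with enrichment under exhaust and 0.813% with both factors. The count of 0 of 38 is near this background. The differences that were measured were small and mostly of one sign, and the map of member values by array shows where they lie.

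**Figure D1:**
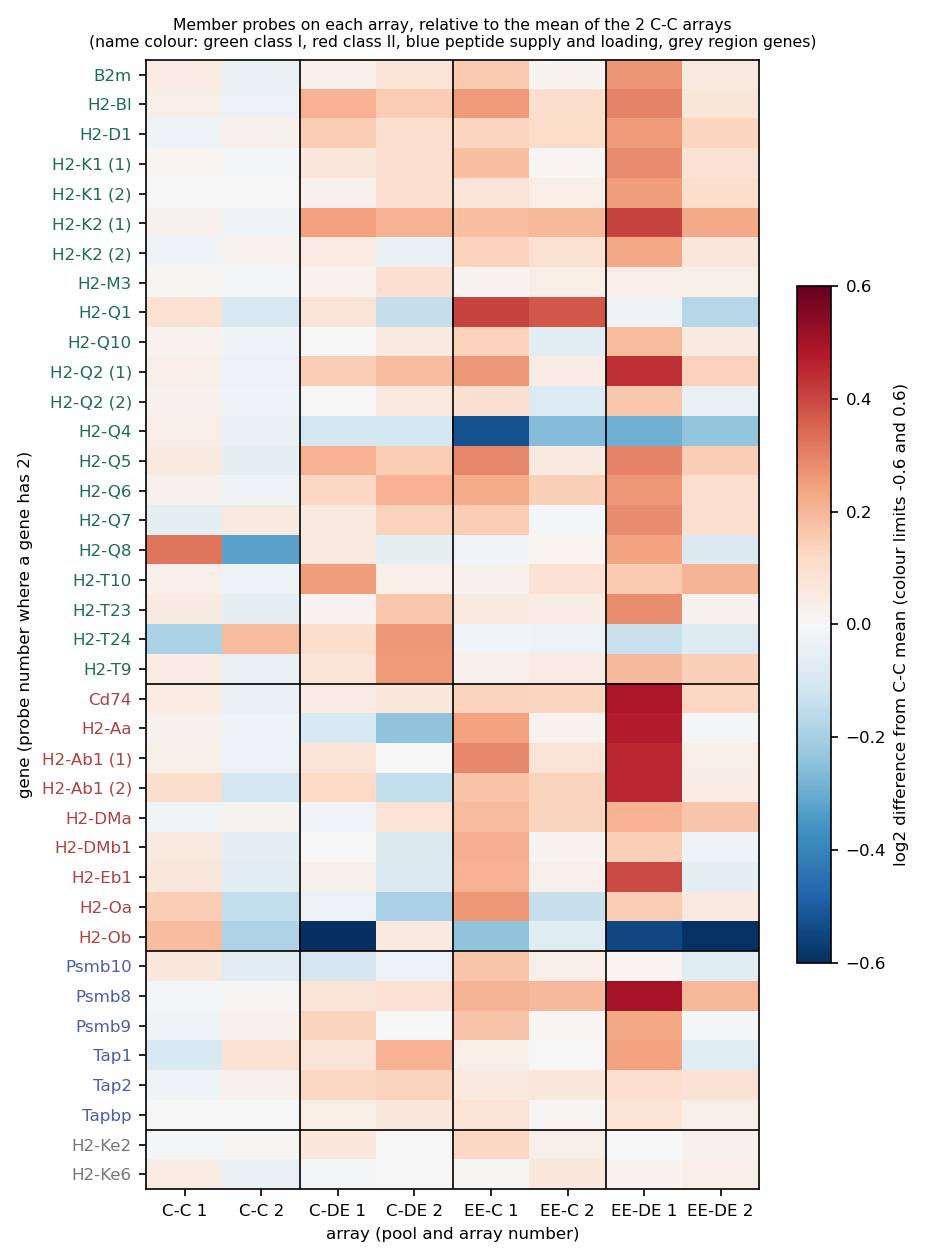
Difference of each of the 38 member probes on each of the 8 arrays (columns, in pool order) from its mean on the 2 C-C arrays, in log2 units by colour, with probes grouped by role. Most class I and class II rows are red on the first EE-DE array and paler on the second, H2-Q4 is blue on all 6 other arrays, H2-Q1 is red on both EE-C arrays, and H2-Ob is blue on both EE-DE arrays.

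Class I is described first. With diesel exhaust in standard cages, the median of the 21 class I probes was 0.09 (0.06 to 0.10 over the pairings) against -0.01 for all probes, and 19 of 21 were higher in C-DE than in C-C. The arrays of the pools did not overlap at 12 probes that were higher and at 1 that was lower. Over all probes, 18.6% were higher and 22.4% lower without overlap. With exhaust in enriched housing the median was 0.08, with 18 of 21 probes higher, but over the pairings it ran from -0.07 to 0.21, and only 5 probes were higher without overlap and 2 lower (all probes: 14.6% and 19.6%). Without the first EE-DE array the median in EE-DE/EE-C was -0.01 and 9 of 21 probes were higher.

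H2-K1 and H2-D1 are the classical class I genes of this strain. The H2-K1 probe with the stronger signal read 2.84 and 2.82 in C-C, 2.90 and 2.93 in C-DE, 3.01 and 2.84 in EE-C, and 3.12 and 2.92 in EE-DE. Its C-DE arrays lay above both C-C arrays, and its EE-DE arrays overlapped those of EE-C. The exposure difference was 0.08 in standard housing (0.06 to 0.11) and 0.09 in enriched housing (-0.09 to 0.27). This probe is printed on 10 spots, of which 6 carried no outlier flag, and those 6 differed within an array with an SD of 0.03 to 0.14. The second H2-K1 probe gave 0.06 and 0.12 in these comparisons. H2-D1 read 1.82 and 1.87 in C-C, 1.99 and 1.94 in C-DE, 1.97 and 1.95 in EE-C, and 2.10 and 1.97 in EE-DE. All 6 arrays of the other pools lay above both C-C arrays, C-DE by a mean of 0.13, EE-C by 0.12 and EE-DE by 0.19.

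B2m, the light chain shared by all class I molecules, read 3.43 and 3.34 in C-C, 3.41 and 3.46 in C-DE, 3.54 and 3.40 in EE-C, and 3.64 and 3.43 in EE-DE. Its arrays overlapped in each comparison but EE-DE/C-C, where the fold change was 0.16. The second C-C array and the first EE-DE array were the extremes. H2-T23, which makes the nonclassical molecule Qa-1, read 2.15 and 2.04 in C-C, 2.12 and 2.26 in C-DE, 2.15 and 2.14 in EE-C, and 2.38 and 2.12 in EE-DE, and its arrays overlapped in all 5 comparisons. H2-M3, which presents formylated peptides, stayed within 0.11 over the 8 arrays, from -1.90 to -1.79.

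Other class I probes whose arrays did not overlap had differences of this size. H2-T9 was higher with exposure in standard housing (0.17, from 0.03 to 0.30) and in enriched housing (0.13, from 0.09 to 0.16), and so was H2-T10 (0.15, from 0.01 to 0.28, and 0.12, from 0.07 to 0.18). One H2-K2 probe was at 0.23 and 0.13 in these comparisons, and the other, at 0.00 and 0.03, overlapped in both. H2-Bl (0.18), H2-Q5 (0.18), H2-Q6 (0.17), H2-Q7 (0.10) and H2-M3 (0.06) were higher without overlap in C-DE/C-C but overlapped in EE-DE/EE-C. H2-Bl and H2-Q6 were also at 0.18 without overlap in EE-C/C-C. H2-Q10 was separate only in EE-DE/C-C (0.12), and H2-Q8 overlapped in all 5. The kept H2-T24 probe was lower without overlap with exposure in enriched housing (-0.08) and with enrichment under exhaust (-0.29). Of the region genes, H2-Ke2 was separate in EE-DE/EE-C (-0.07) and EE-C/C-C (0.08), and H2-Ke6 in EE-DE/C-DE (0.03).

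The H2-Q4 probe went the other way from most class I probes. Its mean level over the 8 arrays was 6.12, against 3.46 for B2m and 2.92 for the stronger H2-K1 probe. Whether H2-Q4 RNA gave this signal was not tested. The probe read 6.35 and 6.27 in C-C, 6.21 and 6.21 in C-DE, 5.79 and 6.05 in EE-C, and 6.03 and 6.07 in EE-DE. Both C-C arrays were above all 6 others. Against C-C it was at -0.11 in C-DE (-0.15 to -0.06), at -0.39 in EE-C (-0.56 to -0.22) and at -0.26 in EE-DE. The H2-Q4 promoter, shown above, holds the same interferon-like letters as those of H2-K1 and H2-D1 but not their kappa-B letters. The part of either in these values was not tested.

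H2-Q1, a class Ib gene, had the largest exposure difference among the 21 class I probes that passed. It read -2.26 and -2.45 in C-C, -2.28 and -2.50 in C-DE, -1.95 and -1.98 in EE-C, and -2.38 and -2.53 in EE-DE. The EE-C arrays stood above the other 6, which overlapped among themselves. The log2 fold change was 0.39 with enrichment in clean air (0.28 to 0.50) and -0.49 with exposure in enriched housing (-0.58 to -0.40), but -0.03 with exposure in standard housing. The other H2-Q probes did not share this pattern: in EE-DE/EE-C they ran from 0.00 for H2-Q6 to 0.14 for one H2-Q2 probe.

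**Figure D2:**
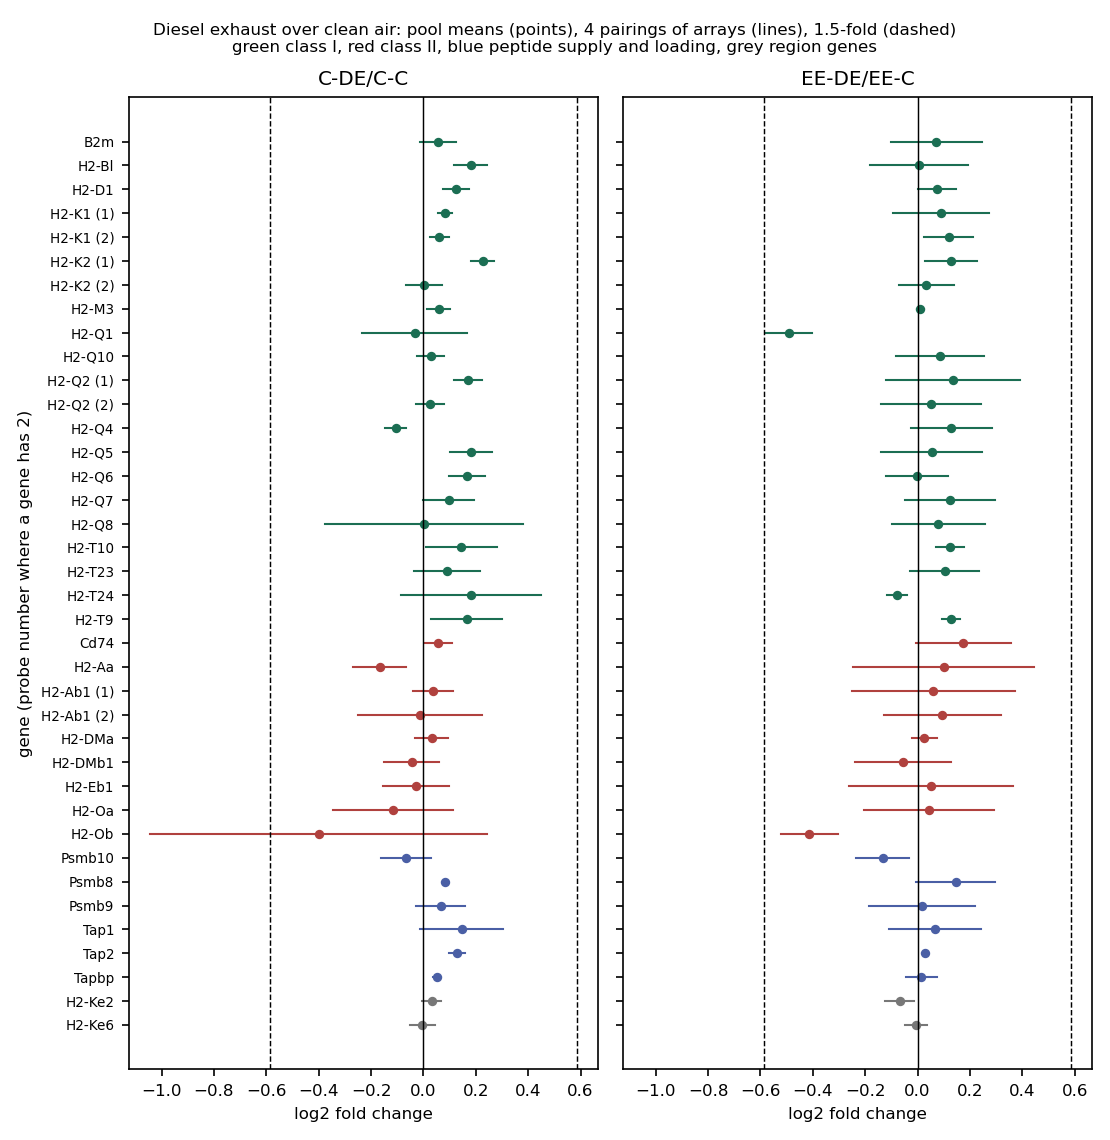
Log2 fold change with diesel exhaust in standard cages (left) and in enriched housing (right) for the 38 member probes, as pool means (points) with the lowest and highest of the 4 pairings of arrays (lines); dashed lines mark 1.5-fold. No point passes a dashed line, most class I points on the left lie between 0 and 0.23, and H2-Q1 and H2-Ob lie farthest from 0 on the right.

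Enrichment without exhaust gave class I values of the same size. In EE-C/C-C the median was 0.07 (0.03 to 0.15), with 18 of 21 probes higher, 10 higher without overlap and 1 lower (all probes: 20.3% and 17.5%). In exposed mice, EE-DE/C-DE, the median was 0.06 (-0.03 to 0.16), and 2 probes were higher and 2 lower without overlap (all probes: 21.2% and 21%). Without the first EE-DE array this median was -0.02, with 8 of 21 probes higher. Both factors together, EE-DE/C-C, gave a median of 0.17 (0.08 to 0.24), 15 probes higher without overlap and 1 lower (all probes: 22.2% and 24.8%). The mean of the C-C pool was the lowest of the 4 for 17 of 21 class I probes and that of EE-DE the highest for 16, against 25.2% and 22.9% of all probes. The 5 comparisons share pools, so these counts are not separate lines of evidence. H2-K2 (one probe 0.32), H2-Q2 (one probe 0.29) and H2-Q5 (0.22) were the class I probes farthest above 0 in EE-DE/C-C. H2-Q4, H2-T24 and H2-Q1 were the only class I probes below 0 in it, at -0.26, -0.11 and -0.10.

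The 2 arrays of the EE-DE pool differed by as much as the pools did. The first was above the second at 18 of 21 class I probes, with a median gap of 0.16, and at 51.5% of all probes. In C-C the median gap was 0.05, in C-DE -0.04 and in EE-C 0.04. Without the first EE-DE array the class I median in EE-DE/C-C was 0.07, and without the second it was 0.25. The first EE-DE array is the one with the higher background and with the higher interferon response genes. Interferon response genes had exposure medians of 0.32 in standard housing (17 of 17 probes higher) and 0.12 in enriched housing (16 of 17). Their enrichment medians were 0.26 in clean air (17 of 17) and 0.02 under exhaust (9 of 17), and with both factors the median was 0.43 (17 of 17). With the first EE-DE array left out, the medians were -0.06 with exposure in enriched housing (5 of 17), -0.14 with enrichment under exhaust (5 of 17) and 0.27 with both factors (14 of 17). Without the second C-DE array the median with exposure in standard housing was 0.15 (13 of 17), and without the first it was 0.56. Of these probes, 2 were 1.5-fold or more higher with exposure in standard housing (all probes: 0.571% in either direction) and 4 with both factors (0.813%), and each count was 0 without the second C-DE array or the first EE-DE array, respectively. Without the first C-DE array or the second EE-DE array instead, the counts were 8 and 10, respectively. In the order in which the comparisons were introduced, 12, 4, 13, 1 and 12 of the 17 were higher without overlap (all probes: 18.6, 14.6, 20.3, 21.2 and 22.2%). None was lower without overlap in any comparison (all probes: 17.5 to 24.8%). The part of these genes in the class I values was not tested.

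**Figure D3:**
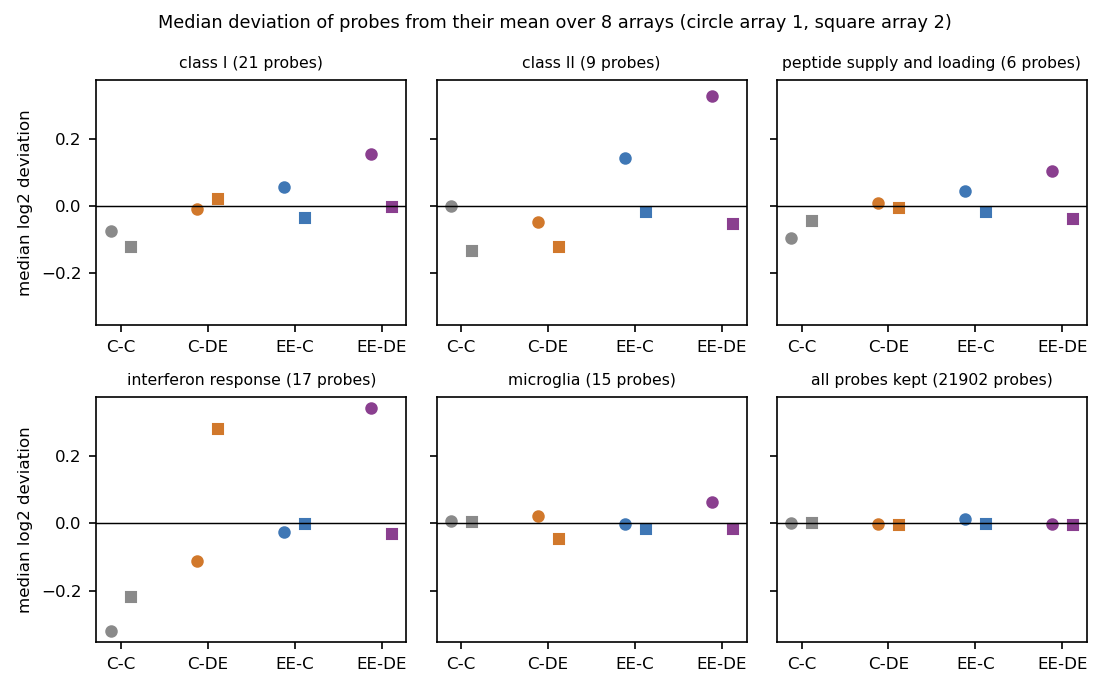
Median deviation (log2) of the probes of each set from their own mean over the 8 arrays, by pool, with circles for the first array of a pool and squares for the second. The first EE-DE array is at 0.15 for class I, 0.33 for class II and 0.34 for interferon response genes, while the second lies at or below 0.00, and microglia markers stay between -0.05 and 0.06.

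In class II the housing comparisons cannot be told apart from slide position. With exposure, the median of the 9 class II probes was -0.03 in standard housing (-0.15 to 0.09), with 3 of 9 higher, and 0.05 in enriched housing (-0.24 to 0.32), with 7 of 9 higher. Enrichment gave 0.13 in clean air (-0.0042 to 0.27) and 0.21 under exhaust (0.06 to 0.42), and both factors together 0.19 (-0.06 to 0.46). In the housing comparisons, 8 of 9 probes were higher in the enriched pool, and 4 of 9 were higher without overlap in each (all probes: 20.3% in clean air and 21.2% under exhaust). Cd74 and H2-DMa were among the 4 both times.

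The chains of the class II molecule itself had similar profiles over the arrays. H2-Ab1, the beta chain of I-A, read 1.08 and 1.01 in C-C, 1.12 and 1.04 in C-DE, 1.33 and 1.13 in EE-C, and 1.5 and 1.08 in EE-DE. H2-Aa, the alpha chain, read -2.20 and -2.26 in C-C, -2.32 and -2.47 in C-DE, -1.99 and -2.21 in EE-C, and -1.76 and -2.23 in EE-DE. In both, the first EE-DE array was the highest and the second no higher than the EE-C arrays. H2-Eb1, a beta chain whose alpha partner is a pseudogene in this strain, read 1.20 and 1.06 in C-C, 1.16 and 1.04 in C-DE, 1.34 and 1.16 in EE-C, and 1.52 and 1.08 in EE-DE. For H2-Aa, arrays did not overlap in C-DE/C-C (-0.17, from -0.27 to -0.07) or in EE-DE/C-DE (0.40, from 0.09 to 0.71, with 0.16 without the first EE-DE array and 0.64 without the second). The second H2-Ab1 probe, which shares 50 of 51 overlapping bases with the first, gave 0.15 in EE-C/C-C and 0.26 in EE-DE/C-DE, and the first 0.19 and 0.21.

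Cd74 read -0.05 and -0.13 in C-C, -0.04 and -0.03 in C-DE, 0.04 and 0.04 in EE-C, and 0.39 and 0.03 in EE-DE. Every array of the other pools was above both C-C arrays, C-DE by a mean of 0.06, EE-C by 0.13 and EE-DE by 0.31. Here too the first EE-DE array made most of the difference, and the second was at the level of EE-C. H2-DMa, a subunit of the peptide exchange factor, read -1.70 and -1.67 in C-C, -1.70 and -1.60 in C-DE, -1.50 and -1.55 in EE-C, and -1.47 and -1.52 in EE-DE. Its enriched arrays were all above its standard-cage arrays, and the duplicates of EE-DE differed by 0.04. Its partner H2-DMb1 was at 0.11 in EE-C/C-C and 0.10 in EE-DE/C-DE, with overlap in both. H2-Oa, at -4.21 to -3.92 in C-C and -4.01 to -3.91 in EE-DE, overlapped in each comparison but EE-DE/C-DE (0.22).

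In EE-DE, the first array was above the second at 9 of 9 class II probes, by a median of 0.36. It was above at 8 of 9 in EE-C (0.18), at 8 of 9 in C-C (0.12) and at 6 of 9 in C-DE (0.09). Without the first EE-DE array the class II median was 0.04 in EE-DE/C-C, 0.06 in EE-DE/C-DE and -0.14 in EE-DE/EE-C. Without the second it was 0.39, 0.42 and 0.27. Without the first EE-C array the median in EE-C/C-C was 0.03. Over the same arrays, the first EE-DE array was above the second at 13 of 15 microglia probes (median 0.06) and at 6 of 6 neutrophil probes (median 0.76), and the first EE-C array at 9 of 15 (median 0.03) and 6 of 6 (median 1.42). Microglia markers (10 genes, all detected) had medians of -0.01 to 0.05 over the 5 comparisons, and log2 of their summed signal was 6.54 to 6.66 in C-C, 6.45 to 6.47 in C-DE, 6.53 to 6.54 in EE-C and 6.49 to 6.51 in EE-DE. Of the border macrophage and dendritic cell markers, 5 of 8 genes were detected and Cd163, Clec9a and Xcr1 were not. Their summed signal was 0.41 to 0.42 in C-C, 0.30 to 0.36 in C-DE, 0.44 to 0.45 in EE-C and 0.32 to 0.41 in EE-DE. With exposure, 2 of the 6 probes of this list were higher in standard housing and 2 in enriched housing, with medians of -0.07 and -0.08. Only the probe of Zbtb46, a transcription factor of classical dendritic cells, was past 1.5-fold in these comparisons (all probes: 0.571% and 0.963%). Zbtb46 was lower in standard housing (-0.71, from -1.03 to -0.39) and in enriched housing (-0.68, from -0.95 to -0.41). It was short of the threshold at -0.46 without the second C-C array and at -0.47 without the second EE-C array. Of 4 B cell genes, 2 were detected, Cd79a and Cd79b, and Ms4a1 was not. Their summed signal was -2.18 to -1.99 in C-C, -2.19 to -2.14 in C-DE, -2.09 to -2.06 in EE-C and -2.12 to -2.09 in EE-DE. Cd79b alone was higher on the first array than on the second in EE-C (-2.68 and -3.05) and in EE-DE (-2.56 and -3.16), and Cd79a was lower. Of 7 T and NK cell genes, 3 were detected, Cd3e, Cd4 and Nkg7, while Cd3d, Cd3g, Cd8a and Klrb1c were not. Their summed signal was 1.88 to 1.92 in C-C, 1.86 to 1.93 in C-DE, 1.96 to 2.09 in EE-C and 1.92 to 2.08 in EE-DE, and Cd3e was higher without overlap with enrichment both in clean air (0.24) and under exhaust (0.32).

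Markers of other cell types differed between pools. The neutrophil markers (6 probes of 5 genes, all detected) had a summed signal of 2.08 to 2.33 in C-C, 1.33 to 1.53 in C-DE, 1.73 to 3.24 in EE-C and 1.81 to 2.52 in EE-DE. The mucosal support and gland markers (6 probes of 5 genes, all detected) were at 2.04 to 2.92 in C-C, 0.93 to 1.36 in C-DE, 1.27 to 2.83 in EE-C and 2.61 to 3.40 in EE-DE. The pool means of both lists were lowest in C-DE, where class II was lowest for 5 of 9 probes and 25.8% of all probes were lowest. The part of any of these cell types in the class II values was not tested.

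H2-Ob, the beta chain of H2-O, had the largest difference of all member probes that passed. Its probe, which spans chr17:34380481-34380849 (build mm9, for which no exon or UTR annotation was used here), read -3.23 and -3.60 in C-C, -4.27 and -3.36 in C-DE, -3.65 and -3.48 in EE-C, and -3.96 and -4.00 in EE-DE. Both EE-DE arrays were below all arrays of C-C and EE-C, while the C-DE arrays were 0.91 apart, the first below all other arrays. EE-DE was at -0.57 against C-C (-0.78 to -0.36), just under the threshold, and at -0.41 against EE-C (-0.52 to -0.30), while C-DE was at -0.40 against C-C (-1.04 to 0.24). Single arrays decided whether it was called. EE-DE/C-C stood at -0.75 without the second C-C array and at -0.59 without the first EE-DE array, EE-DE/C-DE at -0.63 without the first C-DE array, and C-DE/C-C at -0.59 without the second C-C array and -0.86 without the second C-DE array. A second H2-Ob probe was well above background on the 6 arrays of the other pools, at -5.38 to -5.03, and on neither EE-DE array, where it read -5.02 and -6.08. Taking the lowest signal well above background on each EE-DE array as the bound, and the mean of both, C-C was at least 1.10-fold above EE-DE. EE-C was at least 1.14-fold and C-DE at least 1.06-fold above it. This rests on the second EE-DE array alone. On the first, both the bound (-4.71) and the reading lay above the readings of the other 6 arrays. The remaining H2-Ob probe was not well above background on any array.

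The genes that supply and load class I peptides differed little. With exposure, the median of the 6 probes was 0.07 in standard housing (0.06 to 0.12) and 0.02 in enriched housing (-0.08 to 0.15). With enrichment it was 0.08 in clean air (0.03 to 0.12) and 0.02 under exhaust (-0.03 to 0.10), and with both factors 0.09 (0.02 to 0.19). Without the first EE-DE array these medians were -0.05 for exposure in enriched housing, -0.03 for enrichment under exhaust and 0.01 for both factors, where 3 of 6 probes were higher. Of the 6, 5 were higher in C-DE than in C-C and 3 were so without overlap: Psmb8, Tap2 and Tapbp. Of all probes, 47.0% were higher and 18.6% higher without overlap.

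Psmb8 had the largest difference among them. It read -0.73 and -0.72 in C-C, -0.65 and -0.64 in C-DE, -0.52 and -0.53 in EE-C, and -0.23 and -0.53 in EE-DE. Duplicates matched to 0.02 in 3 pools and were 0.30 apart in EE-DE. The arrays of C-C, C-DE and the enriched pools formed steps without overlap: 0.08 in C-DE/C-C, 0.20 in EE-C/C-C, 0.26 in EE-DE/C-DE and 0.35 in EE-DE/C-C. EE-DE and EE-C overlapped. Psmb9, encoded beside Tap1, read -0.91 and -0.85 in C-C, -0.75 and -0.88 in C-DE, -0.71 and -0.87 in EE-C, and -0.65 and -0.89 in EE-DE, with overlap in all 5 comparisons. Psmb10, the remaining subunit, was at -0.13 in EE-DE/EE-C without overlap (-0.24 to -0.03) and overlapped elsewhere.

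Tap2 read 1.68 and 1.73 in C-C, 1.83 and 1.84 in C-DE, 1.77 and 1.78 in EE-C, and 1.80 and 1.79 in EE-DE. The duplicates were so close that the pools did not overlap in any comparison, with 0.13 for exposure in standard housing, 0.06 for enrichment in clean air and -0.04 for enrichment under exhaust. Tap1, its partner, is printed on 10 spots, 9 of them kept. The mean of these read -4.10 and -3.92 in C-C, -3.93 and -3.80 in C-DE, -3.97 and -4.01 in EE-C, and -3.77 and -4.08 in EE-DE, with an SD between spots of 0.12 to 0.22 within an array. Its arrays overlapped in all 5 comparisons. Tapbp stayed between 0.79 and 0.87 on all 8 arrays. The region genes had fold changes of -0.07 to 0.08.

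Further genes of antigen processing and its control, 42 genes on the array with 50 probes, gave medians between -0.01 and 0.04 in the 5 comparisons, with those of all probes between -0.01 and 0.01. The only probe past 1.5-fold in any comparison was that of Psme3, a subunit of a proteasome activator, at 0.65 in EE-DE/C-C (0.40 to 0.91). Of all probes, 0.813% were past it there. Without the first C-C array no probe of the list was called in EE-DE/C-C. Without the second C-DE array or the second C-C array, 1 was called in C-DE/C-C. Psme3 read 0.95 and 0.42 in C-DE and 0.85 and 0.90 in EE-DE, against -0.01 and 0.45 in C-C and 0.46 and 0.42 in EE-C. Nlrc5, the activator of class I genes, was at 0.16 with exposure in enriched housing (0.08 to 0.24) and at -0.14 with enrichment under exhaust (-0.24 to -0.05), and overlapped in the other comparisons. Calr and Canx, chaperones of the class I heavy chain, lay between -0.16 and 0.03 in all comparisons, and the endosomal proteases Ctss, Ctsl and Ctsb between -0.08 and 0.12.

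Among the members left out of the counts, H2-M11 stood out, and it was chosen after its values were seen. Its probe lies at chr17:36685754-36685813 (mm9). It read -5.29 and -6.50 in C-C, the second not well above background, -5.04 and -4.40 in C-DE, -5.55 and -5.66 in EE-C, and -4.33 and -3.88 in EE-DE. All 4 exposed arrays were above all 4 clean-air arrays. With exposure in enriched housing, where all 4 arrays were well above background, the log2 fold change was 1.5 (1.23 to 1.78), a 2.83-fold difference. With enrichment under exhaust it was 0.62 (0.08 to 1.15), and 0.598% of probes well above background on those 4 arrays were 1.5-fold or more higher. Among probes well above background on the 4 arrays of EE-DE and EE-C, 0.666% were 1.5-fold or more higher in EE-DE. H2-M11 was picked for the size of its change, so its place among them is no evidence. Its signal was also dim: on the first EE-DE array the lowest signal well above background was -4.71. Only 1 of the 4 arrays in C-DE/C-C, the second C-C array, fell short of the background limit. The list for vomeronasal neurons, which also holds the G protein genes Gnao1 and Gnai2, had a median of -0.05 in EE-DE/EE-C (5 probes of 3 genes). Its receptor genes Vmn1r50 and Vmn2r1 were not detected on all arrays. With these lost and G protein genes in the list, the median is no measure of vomeronasal neuron content. H2-M2 is left out for want of an accession, though its probe with 10 spots was well above background on all arrays. It read -0.37 and -0.45 in C-C, -0.46 and -0.27 in C-DE, -0.17 and -0.29 in EE-C, and -0.29 and -0.31 in EE-DE, so the pools overlapped with exposure but EE-C lay above C-C.

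Ciita was well above background on the second arrays of C-C, C-DE and EE-C, where it read -5.45, -5.45 and -5.26, and on neither EE-DE array (-6.65 and -6.47). On the first arrays of C-C, C-DE and EE-C, also not well above background, it read -6.47, -6.08 and -5.80. The first C-C array was thus level with the second EE-DE array. No fold change is given for it. A second H2-T24 probe failed on the first EE-DE array alone. It was 0.51 higher in EE-C than in C-C (0.23 to 0.79), where the H2-T24 probe that passed was at -0.03 with overlap, so the probes of this gene differ.

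**Figure D4:**
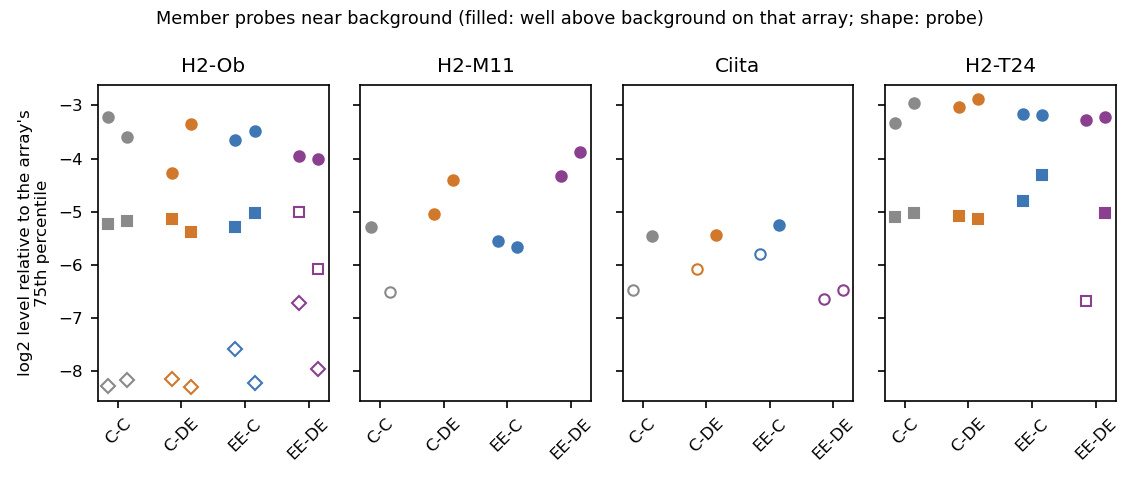
Log2 level relative to the array's 75th percentile on each of the 8 arrays, by pool, for probes of H2-Ob, H2-M11, Ciita and H2-T24 (one symbol shape per probe; filled where the probe was well above background on that array). The 4 exposed H2-M11 arrays lie between -5.04 and -3.88, above the clean-air arrays, and both EE-DE arrays of Ciita and of the second H2-Ob probe are unfilled.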

How the data were processed

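RNA pools of olfactory bulb were hybridised by the authors to Agilent SurePrint G3 mouse arrays, labelled with Cy3 (1 colour). Per the submitters' processing notes, Agilent Feature Extraction 10.7.3.1 made the deposited intensity values: the processed signal, from which a fitted surface was subtracted, and the mean and background signals. Groups were taken from the sample titles. Here log2 of the processed signal minus the array's 75th percentile over the 59305 noncontrol spots was used. Spots were kept with a GenBank or RefSeq accession, well above background on all 8 arrays and without outlier flags (24149 spots, 21902 probes). Spots of a probe were averaged, and the probe is the unit. The number of arrays, 2 per pool, limits the precision. With 1 pool per group no test was run. Fold changes are differences of pool means, and the calculation was tested on simulated data with Python 3.11.15, numpy 2.4.6 and pandas 2.3.3.

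The authors also deposited a series table of log2 values. These are the same signals on the same scale and in the same direction, centred on each probe's median over the 8 arrays: 99.4% of the 21902 probes match within 0.02 on all arrays. Its column medians lie between -0.0113 and 0.0183. It served as an alternative, as did normexp background correction and quantile normalization (R 4.3.3, limma 3.58.1), other filters, scales, probe averages and thresholds, and leaving out each array.

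Members and gene lists were chosen with earlier results of these data known. Member genes are named where a probe reached 1.5-fold, has a defined role in the pathway, gave the same direction for all its kept probes in all 4 pairings of a comparison, has probes that disagree in sign at 0.3 or more (none did), or was dim in 1 pool and not in another. Gene names are those of the array, and accessions of 53 of 65 member probes matched RefSeq. Motif letters were chosen after the values were seen. Some genes of the lists are not reported here.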

Additional observations from a re-analysis of the deposited data

Results flagged for a closer look

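The Tap2 probe was higher in EE-C than in C-C in all pairings of arrays and lower in EE-DE than in C-DE in all pairings, with log2 fold changes of 0.06 and -0.04. The opposite directions of housing with clean air and with exhaust were seen at 3.73% of all probes, and the difference was not tested.

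The H2-M11 probe was left out of the counts because 1 C-C array was not well above background. On the log2 scale it was at 1.5 (1.23 to 1.78) with exposure in enriched housing. With enrichment under exhaust it was at 0.62 (0.08 to 1.15), where the lowest pairing fell short of 1.5-fold. It is listed as a signal outside the counted probes, and neither difference was tested.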

How the results depend on the processing

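No paired analysis was possible because each group is 1 pool and the array numbers 1 and 2 only name the parts of a pool. The 15 role medians and 5 counts kept their values within the spread between arrays under normexp correction, quantile normalization, scaling to the median, the series table, linear averaging, ignored outlier flags, all noncontrol spots, gene means, the brighter 75% of probes (1 of 15 medians then had the opposite sign), class I reduced to H2-K1, H2-D1 and the H2-Q and H2-T genes (without B2m, H2-M, H2-Bl and H2-K2) and, for the counts, 2-fold or 1.5-fold in all pairings. No spatial block differed between duplicates by more than 0.198, so leaving out blocks above 0.2 removed nothing. The counts of 0 changed with the filter on dim spots and with single arrays. In the order in which the report introduces the comparisons, probes positive and significant on all arrays gave 1, 1, 0, 2 and 1, probes well above background in at least 1 pool gave 1, 2, 0, 2 and 2, and no filter gave 5, 16, 5, 19 and 16. These counts are of 42, 42 and 62 member probes. The share of all probes called under these filters was not computed, so the counts have no background to be read against. Under the first 2 of these filters the added probes were of H2-M11, H2-M1 and H2-T24. Without a filter the class I median in C-DE/C-C was 0.0306.

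Leaving out 1 array gave counts of 0 to 1 in C-DE/C-C, EE-DE/C-DE and EE-DE/C-C and 0 to 0 in the other comparisons. The probes called were H2-Ob and, without the second EE-DE array, H2-Aa. Without the first EE-DE array 5 of 9 medians had the opposite sign. The class I medians, in the same order of comparisons, ranged from 0.0659 to 0.101, -0.0129 to 0.152, 0.0440 to 0.137, -0.0243 to 0.133 and 0.0742 to 0.252. The class II medians ranged from -0.105 to 0.0321, -0.138 to 0.269, 0.0281 to 0.210, 0.0564 to 0.416 and 0.0382 to 0.394. The peptide supply and loading medians ranged from 0.0548 to 0.0927, -0.0487 to 0.0890, 0.0262 to 0.122, -0.0302 to 0.0864 and 0.0116 to 0.164. Of 1760 single-gene values recomputed, 1738 stayed within the spread between arrays, 70 had the opposite sign and 6 passed 1.5-fold. Values recomputed without 1 array could not leave that spread, because the spread is computed from the same gaps between duplicates. H2-Ob in C-DE/C-C, at -0.40 with all arrays, counted as within it at -0.86 without the second C-DE array. The count of 1738 is therefore no evidence that single-gene values hold when an array is left out. Signals not well above background on some arrays limit Ciita, H2-M11 and the second H2-Ob probe.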
